A study of Homo sapiens with 12 samples.

Results

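Genes that bring thyroid hormone into a cell, hold it there or change it chemically were followed in MDA-MB-468, a human breast cancer line of the basal-like type. They were SLC16A10, SLC7A8, SLC7A5, SLC3A2, DIO2, SULT1A1, SULT1A2 and CRYM, taken by name as 8 of the 56832 names in the gene counts. RNA sequencing covered 4 groups of 3 libraries, 12 in all. TRB T3 and TRB vehicle cells stably carried the vector pCDH-TRB, which expresses thyroid hormone receptor beta, and EV T3 and EV vehicle cells carried the empty vector pCDH-EV. T3 was given at 10 nM for 24 hours, the vehicle was NaOH, and every group had first been starved of hormone for 24 hours in medium with charcoal-stripped serum. The labels give 1 stable line for each vector, so a difference between TRB and EV cells is a difference between those lines. The labels are silent on separate cultures within a group, and the p-values therefore rest on the spread between libraries, which could be technical only.

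Thyroid hormones do not cross membranes freely and enter cells through carriers. SLC16A10 encodes MCT10, a carrier of aromatic amino acids and T3. SLC7A5 (LAT1) and SLC7A8 (LAT2) are light chains that carry large neutral amino acids and also iodothyronines, and each reaches the surface as a dimer with the heavy chain that SLC3A2 (CD98hc, 4F2hc) encodes. Inside the cell, the deiodinase made from DIO2 removes an outer-ring iodine from thyroxine and so produces T3, the hormone that the nuclear receptors bind. The sulfotransferases SULT1A1 and SULT1A2 add sulfate to phenols, iodothyronines among them, which prepares the hormone for breakdown. CRYM encodes mu-crystallin, a cytosolic protein that binds T3.

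Counts assigned to genes ranged from 11335783 to 11915181 in TRB T3 libraries, 7311623 to 8904361 in TRB vehicle, 10323437 to 11955825 in EV T3 and 4241863 to 7851876 in EV vehicle libraries. Every T3 library was thus deeper than every vehicle library. The mitochondrial ribosomal RNA MT-RNR1 also moved with treatment, at 103 to 151 CPM (counts per 1000000 of a library's scaled total) in TRB T3, 1796 to 4772 in TRB vehicle, 58.3 to 95.8 in EV T3 and 822 to 8046 in EV vehicle libraries. THRB, the receptor gene, stood at 329 ± 16.7 CPM in TRB T3, 140 ± 4.15 in TRB vehicle, 38.5 ± 1.23 in EV T3 and 43.4 ± 0.824 in EV vehicle libraries (SD, n = 3), higher in each TRB library than in any EV library. Vector and native transcripts cannot be told apart in these counts. KLF9, a known T3 target, averaged 27.1 ± 0.382 CPM in TRB T3, 2.44 ± 0.502 in TRB vehicle, 13.0 ± 2.10 in EV T3 and 2.95 ± 0.714 in EV vehicle libraries (SD, n = 3). HR, another known target, averaged 220 ± 10.2 CPM in TRB T3, 61.6 ± 2.69 in TRB vehicle, 96.1 ± 1.54 in EV T3 and 87.5 ± 0.808 in EV vehicle libraries (SD, n = 3). Of 9 basal-like markers none was at 0, and their summed level was 4684 to 4869 CPM in TRB T3, 5866 to 5895 in TRB vehicle, 6829 to 7383 in EV T3 and 7355 to 7669 in EV vehicle libraries. EGFR alone, at 4225 to 5664 CPM over the 12 libraries, made up most of that sum. Within the list KRT5 ranged from 197 to 1161 CPM, KRT17 from 108 to 554 and VIM from 0.611 to 7.49, while CDH3 stayed at 71.95 to 108. The sum therefore says little about its smaller markers. Of the 6 luminal or hormone receptor markers PGR was at 0, whereas FOXA1 (109 to 163 CPM), ERBB2 (77.7 to 142), GATA3 (33.6 to 72.6) and ESR1 (5.22 to 10.8) were detected. Their sum was 297 to 314 CPM in TRB T3, 318 to 333 in TRB vehicle, 258 to 279 in EV T3 and 270 to 279.8 in EV vehicle libraries. Of the 5 fibroblast markers COL1A2 and DCN were at 0, and COL1A1 stood at 14.6 to 21.1 CPM. Of the 4 endothelial markers VWF stayed under 1 CPM, and PECAM1, CDH5 and KDR reached at most 2.57, 3.95 and 4.09 CPM. Of the 6 thyroid follicular markers NKX2-1 was at 0 and 5 stayed under 1 CPM in every library. Of the 4 leukocyte markers PTPRC and CD3E stayed under 1 CPM, whereas CD14 ranged from 17.5 to 194 CPM and carried the list's sum of 182 to 194 CPM in TRB T3, 17.6 to 21.7 in TRB vehicle, 49.8 to 52.8 in EV T3 and 28.1 to 32.7 in EV vehicle libraries. The part of these shifts in the results below was not tested.

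Of the 8 members, 7 could be judged. A member counted as too low when edgeR's filterByExpr dropped it or when its mean was under 1 CPM in every group. CRYM (chromosome 16, 21238874 to 21303083, GRCh38) had 9 counts over all 12 libraries. These were 2, 0 and 1 in TRB T3 and 4, 0 and 2 in TRB vehicle libraries, with 0 in each EV T3 and each EV vehicle library. A count of 0 allows up to 3 counts over a group, which is 0.0884 CPM in EV T3 and 0.163 CPM in EV vehicle cells. CRYM was therefore too low to judge, and no fold change is given.

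Levels of different genes were compared as RPKM, which is CPM per kilobase of annotated exon. In TRB T3 cells SLC7A5 came highest at 30.5 ± 1.08 RPKM and SLC3A2 next at 26.9 ± 1.04 RPKM (SD, n = 3). SULT1A1 followed at 7.83 ± 0.254 and SULT1A2 at 6.71 ± 0.262 RPKM, then SLC16A10 at 0.693 ± 0.069, SLC7A8 at 0.454 ± 0.0546 and DIO2 at 0.101 ± 0.0282 RPKM. By this measure the amino acid carrier and its heavy chain were the abundant transcripts, and the other carriers and the deiodinase the scarce ones. In EV vehicle cells SLC7A5 stood at 52.8 ± 1.55, SLC3A2 at 36.8 ± 1.66, SULT1A1 at 2.48 ± 0.192 and SULT1A2 at 1.24 ± 0.486 RPKM. The scarce genes there were SLC7A8 at 0.588 ± 0.0486, DIO2 at 0.404 ± 0.0459 and SLC16A10 at 0.233 ± 0.00548 RPKM, so SLC16A10 was last without receptor vector and hormone and above SLC7A8 and DIO2 with both. Exon lengths pool all annotated isoforms, which lowers the RPKM of a gene with long rare isoforms. They were 8909 bases for SULT1A1, 5178 for SLC3A2, 4745 for SLC7A5 and 2275 for SULT1A2. The longest protein-coding transcripts of these genes have 1871, 2222, 4537 and 1991 bases. RPKM were thus lowered most for SULT1A1 and SLC3A2. The order of SLC7A5, SLC3A2 and SULT1A1 in TRB T3 cells depends on the length used.

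**Figure D1:**
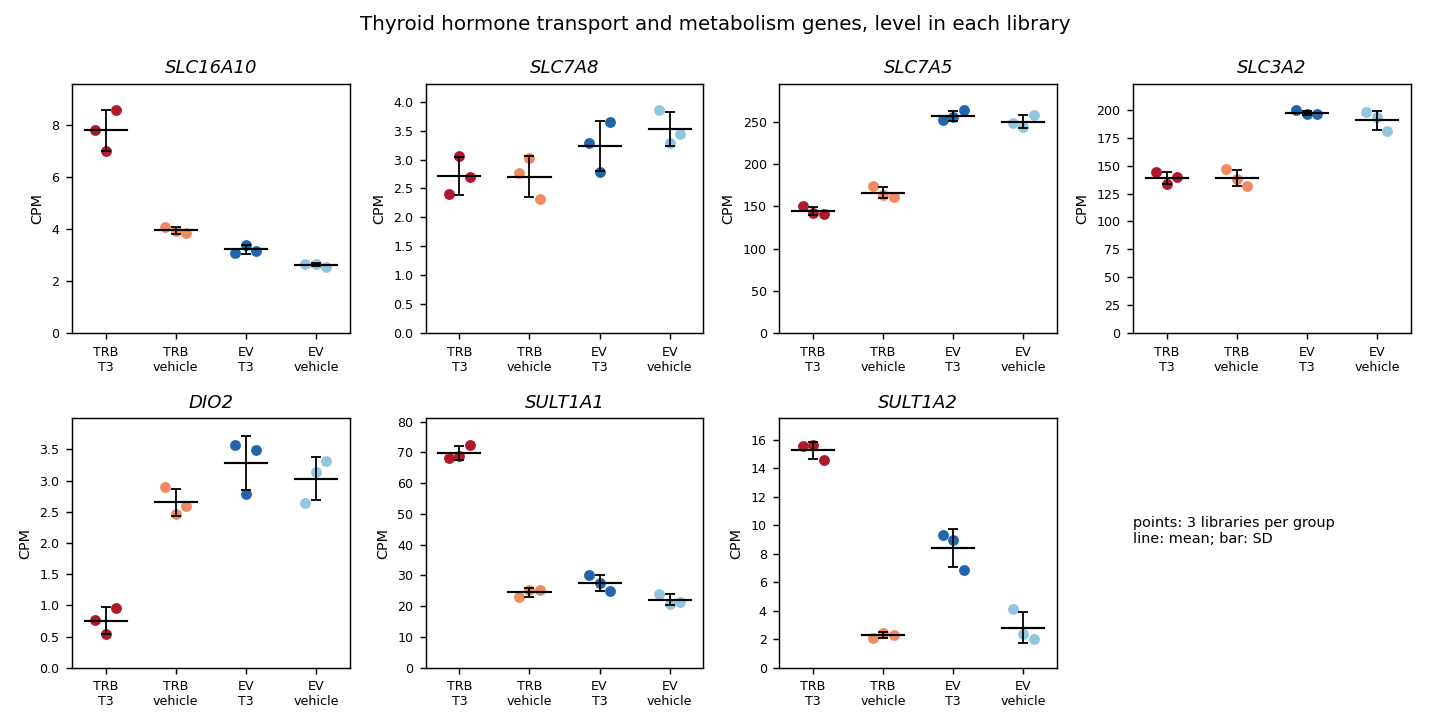
Level of the 7 members that could be judged, in CPM on a linear axis from 0, for each of the 4 groups; points are the 3 libraries of a group, the line is their mean and the bar their SD. SULT1A1 and SULT1A2 are highest and DIO2 lowest in TRB T3 libraries, and SLC7A5 and SLC3A2 are lower in both TRB groups than in both EV groups.

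SLC16A10, the aromatic amino acid and T3 carrier (chromosome 6, 111087503 to 111231194, plus strand), was highest in TRB cells given T3. It measured 7.80, 7.00 and 8.56 CPM in TRB T3 libraries, against 4.08, 3.92 and 3.83 CPM in TRB vehicle libraries. The EV T3 libraries held 3.08, 3.39 and 3.15 CPM and the EV vehicle libraries 2.65, 2.66 and 2.55 CPM. No group overlapped another, and the order was TRB T3, TRB vehicle, EV T3 and EV vehicle. In TRB cells T3 raised it 1.97-fold (log2 fold change 0.98 ± 0.17 SE, adjusted p = 1.59e-06), and under T3 it was 2.42-fold higher in TRB than in EV cells (1.27 ± 0.16, adjusted p = 6.39e-10). In EV cells the T3 effect was 0.30 ± 0.24 (adjusted p = 0.602), and with vehicle the TRB cells stood 0.59 ± 0.24 above EV cells (adjusted p = 0.095). The difference between the T3 effects in TRB and EV cells, 0.68 with a 95% interval of 0.08 to 1.29, did not pass (adjusted p = 0.0968), so the T3 effect was not shown to differ between the lines. With counts thinned to equal depth the T3 effect in TRB cells was 0.93 (adjusted p = 0.00131). The vehicle counts were low, 28 to 35 in TRB and 11 to 20 in EV libraries. Opposite-strand exons of AL360227.1 overlap the gene, and whether strand was used in counting is not known.

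The SLC16A10 promoter is shown because the receptor recognises the hexamer AGGTCA. Capitals mark the only match to it, on the opposite strand as TGACCT, at bases 270 to 275 of the window, past the start. A match on either strand is found in 13.8% of the 35116 promoter windows in the RefSeq table (GRCh38.p14; each runs from 250 bases before to 50 after a start), so it is a description of these letters. The direct repeat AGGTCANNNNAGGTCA, found in 0.0199% of windows, was in none of the members' windows. Of the 8 members 5, with 11 windows, were in that table; SULT1A1, SULT1A2 and CRYM were not.
SLC16A10 promoter, chr6:111087253-111087552, plus strand: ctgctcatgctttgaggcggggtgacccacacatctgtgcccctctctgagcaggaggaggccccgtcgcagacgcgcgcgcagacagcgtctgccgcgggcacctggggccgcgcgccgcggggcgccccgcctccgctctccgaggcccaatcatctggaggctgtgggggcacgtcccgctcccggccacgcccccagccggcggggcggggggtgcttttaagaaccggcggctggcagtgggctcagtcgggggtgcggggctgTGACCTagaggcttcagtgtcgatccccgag

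SLC7A5 and SLC3A2, the LAT1 light chain and its heavy chain, differed mainly by vector. SLC7A5 (chromosome 16, 87830023 to 87869488, minus strand) measured 150.4, 142 and 141 CPM in TRB T3 and 174, 163 and 162 CPM in TRB vehicle libraries. It measured 252, 255 and 264 CPM in EV T3 and 248, 244 and 259 CPM in EV vehicle libraries. All 6 TRB libraries lay below all 6 EV libraries, and TRB T3 lay below TRB vehicle without overlap, whereas the EV groups overlapped. SLC7A5 was 1.78-fold lower in TRB than in EV cells with T3 (log2 fold change -0.83 ± 0.04 SE, adjusted p = 5.92e-29) and 1.51-fold lower with vehicle (-0.59 ± 0.04, adjusted p = 5.25e-18). T3 lowered it 1.15-fold in TRB cells (-0.20 ± 0.04, adjusted p = 6.96e-05) and left it at 0.04 ± 0.04 in EV cells (adjusted p = 0.731). Those T3 effects differed by -0.24 ± 0.06 (adjusted p = 0.00123). Opposite-strand exons of AC126696.2 overlap SLC7A5, with the same limit on its counts.

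SLC3A2 (chromosome 11, 62856102 to 62888875, plus strand) measured 144, 133 and 139.6 CPM in TRB T3 and 147, 138 and 132 CPM in TRB vehicle libraries. It measured 199.5, 196 and 196 CPM in EV T3 and 198, 193 and 181 CPM in EV vehicle libraries. As for its light chain, the TRB and EV libraries did not overlap, but the T3 and vehicle libraries of each line did. The heavy chain was 1.42-fold lower in TRB than in EV cells with T3 (-0.50 ± 0.04 SE, adjusted p = 6.07e-17) and 1.37-fold lower with vehicle (-0.45 ± 0.05, adjusted p = 6.55e-12). Its T3 effect was 0.00 in TRB cells, with a 95% interval of -0.09 to 0.09, and 0.05 in EV cells, with an interval of -0.03 to 0.14 (adjusted p = 0.97 and 0.598). The sign of the effect in TRB cells changed between settings, from -0.08 with offsets for GC content to 0.04 at the other end, and it passed in none of them. Per 100 SLC7A5 counts there were 95.8, 93.9 and 99.0 SLC3A2 counts in TRB T3, 84.3, 84.7 and 81.5 in TRB vehicle, 79.1, 76.7 and 74.3 in EV T3 and 79.5, 79.2 and 70.0 in EV vehicle libraries. These ratios were highest in TRB T3 libraries, without overlap with another group, and their difference was not tested. The summed basal-like markers, most of it EGFR, were lower in the TRB groups too, as given above, and their part in the carrier difference was not tested.

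The promoters of this pair are shown because the dimer partners were lower together in TRB cells. Capitals mark the palindrome CACGTG (E-box) at bases 121 to 126 of the SLC7A5 window and TTACATCA at bases 288 to 295 of the SLC3A2 window. TTACATCA matches the reverse complement of TGATGNAA, an element bound by the amino acid starvation factor ATF4. Of all windows 7.26% hold CACGTG and 3.62% hold TGATGNAA on either strand. CACGTG was added to the search after the promoters had been read. It also occurs in 1 of the 4 SLC7A8 windows, and the other 2 SLC3A2 windows hold no motif searched.
SLC7A5 promoter, chr16:87869458-87869757, minus strand: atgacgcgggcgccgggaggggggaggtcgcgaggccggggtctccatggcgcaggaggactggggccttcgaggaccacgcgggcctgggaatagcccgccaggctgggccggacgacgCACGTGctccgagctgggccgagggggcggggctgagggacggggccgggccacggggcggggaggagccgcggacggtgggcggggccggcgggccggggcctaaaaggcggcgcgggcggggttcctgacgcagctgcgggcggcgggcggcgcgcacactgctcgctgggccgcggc
SLC3A2 promoter, chr11:62881449-62881748, plus strand: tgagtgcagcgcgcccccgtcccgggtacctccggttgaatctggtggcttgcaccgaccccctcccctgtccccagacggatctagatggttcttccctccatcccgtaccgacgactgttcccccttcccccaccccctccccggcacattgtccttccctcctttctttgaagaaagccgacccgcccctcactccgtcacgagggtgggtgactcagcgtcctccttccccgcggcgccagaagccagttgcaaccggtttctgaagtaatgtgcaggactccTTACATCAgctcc

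SLC7A8, the LAT2 light chain (chromosome 14, 23125295 to 23183674, minus strand), was scarce and passed in no comparison. It measured 2.40, 3.05 and 2.71 CPM in TRB T3, 2.76, 3.02 and 2.32 CPM in TRB vehicle, 3.28, 2.78 and 3.65 CPM in EV T3 and 3.85, 3.29 and 3.44 CPM in EV vehicle libraries. T3 and vehicle libraries overlapped in both lines, and TRB vehicle lay below EV vehicle without overlap. Its T3 effect was 0.00 in TRB cells (95% interval -0.48 to 0.47, adjusted p = 0.992) and -0.10 in EV cells (-0.57 to 0.36, adjusted p = 0.887). TRB minus EV was -0.25 with T3 (-0.67 to 0.17, adjusted p = 0.351) and -0.35 with vehicle (-0.87 to 0.16, adjusted p = 0.416). At 16 to 44 counts a library, the interval for T3 in TRB cells holds the -0.20 measured for SLC7A5, so a change of that size was not detectable at this depth.

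DIO2, the deiodinase gene (chromosome 14, 80197527 to 80387757, minus strand), fell with T3 in TRB cells. It had 9, 6 and 11 counts in TRB T3 libraries and 22, 22 and 19 in TRB vehicle libraries, which is 0.771, 0.539 and 0.960 CPM against 2.89, 2.46 and 2.60 CPM. EV T3 libraries had 37, 32 and 42 counts, or 3.57, 2.78 and 3.48 CPM, and EV vehicle libraries 11, 20 and 26 counts, or 2.65, 3.13 and 3.31 CPM. The TRB T3 libraries lay below all 9 others, and the other groups overlapped. T3 lowered DIO2 3.44-fold in TRB cells (log2 fold change -1.78 ± 0.32 SE, adjusted p = 2.55e-06), and under T3 it was 4.25-fold lower in TRB than in EV cells (-2.09 ± 0.28, adjusted p = 3.38e-09). In EV cells the T3 effect was 0.08 ± 0.24 (95% interval -0.40 to 0.56, adjusted p = 0.919). The T3 effects differed by -1.86 ± 0.40 (adjusted p = 0.000167), and the vehicle groups by -0.23 ± 0.27 (adjusted p = 0.657). TRB T3 had the smaller counts in deeper libraries, and thinned to equal depth the T3 effect in TRB cells was -2.05 (adjusted p = 0.000166). Opposite-strand exons of DIO2-AS1 overlap DIO2, with the same limit.

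One of the 2 DIO2 promoter windows is shown because it holds the cyclic AMP response element TGACGTCA, in capitals at bases 155 to 162, and cyclic AMP is a known inducer of DIO2. The element occurs in 1.85% of all windows and was added to the search after the promoters had been read. Neither DIO2 window holds AGGTCA.
DIO2 promoter, chr14:80212129-80212428, minus strand: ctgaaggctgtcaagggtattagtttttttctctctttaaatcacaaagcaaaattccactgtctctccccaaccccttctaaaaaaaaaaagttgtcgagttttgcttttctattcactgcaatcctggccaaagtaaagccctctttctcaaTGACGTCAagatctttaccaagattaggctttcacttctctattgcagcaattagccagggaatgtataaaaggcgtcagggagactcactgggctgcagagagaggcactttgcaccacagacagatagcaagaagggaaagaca

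The sulfotransferase genes rose most. SULT1A1 (chromosome 16, 28605196 to 28623625, minus strand) measured 68.1, 68.9 and 72.4 CPM in TRB T3 libraries, against 22.9, 25.2 and 25.4 CPM in TRB vehicle libraries. It measured 30.2, 27.5 and 24.96 CPM in EV T3 libraries, against 24.1, 20.8 and 21.5 CPM in EV vehicle libraries. TRB T3 stood far above every other library, and EV T3 lay above EV vehicle without overlap, while EV T3 and TRB vehicle overlapped. T3 raised SULT1A1 2.85-fold in TRB cells (log2 fold change 1.51 ± 0.07 SE, adjusted p = 1.56e-29) and 1.25-fold in EV cells (0.33 ± 0.09, adjusted p = 0.0191). The EV result did not pass by DESeq2 (0.33, adjusted p = 0.0844) or after thinning to equal depth (0.29, adjusted p = 0.208). Nor did it pass without EV vehicle replicate 2 (adjusted p = 0.114) or 3 (0.17) or EV T3 replicate 1 (0.113) or 2 (0.0628). The T3 effects differed by 1.18 ± 0.12 (adjusted p = 4.88e-13), and under T3 the gene was 2.54-fold higher in TRB than in EV cells (1.35 ± 0.06, adjusted p = 3.91e-29). With vehicle the lines differed by 0.16 ± 0.10 (adjusted p = 0.295). Exons of AC020765.5 overlap SULT1A1 on the same strand, so reads there could count for either gene or be dropped.

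SULT1A2 (chromosome 16, 28591943 to 28597109, minus strand), its neighbour on the chromosome, rose in both lines. It measured 15.6, 15.6 and 14.6 CPM in TRB T3 libraries, against 2.10, 2.46 and 2.32 CPM in TRB vehicle libraries. It measured 9.35, 8.96 and 6.88 CPM in EV T3 libraries, against 4.09, 2.35 and 2.04 CPM in EV vehicle libraries. Neither pair of groups overlapped, and EV vehicle replicate 1 stood above the other 5 vehicle libraries. T3 raised SULT1A2 6.59-fold in TRB cells (log2 fold change 2.72 ± 0.17 SE, adjusted p = 2.07e-22) and 3.18-fold in EV cells (1.67 ± 0.21, adjusted p = 7.97e-09). The T3 effects differed by 1.05 ± 0.31 (adjusted p = 0.00859), but without EV vehicle replicate 1 by 0.79 (adjusted p = 0.101). Under T3 it was 1.83-fold higher in TRB than in EV cells (0.87 ± 0.12, adjusted p = 5.51e-09), and with vehicle the difference was -0.18 ± 0.29 (adjusted p = 0.752).

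The coding sequences of these paralogs are set side by side because their reads can be confused. Each has 885 coding bases, and they differ at 28 of them, so 96.8% are identical, with a longest identical run of 128 bases. Coding bases 433 to 492 hold 7 of the differences, in capitals.
SULT1A2 coding sequence, bases 433 to 492: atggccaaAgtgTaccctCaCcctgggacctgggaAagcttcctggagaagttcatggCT
SULT1A1 coding sequence, bases 433 to 492: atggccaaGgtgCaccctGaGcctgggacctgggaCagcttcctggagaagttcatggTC

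Of the 50-base stretches in a SULT1A2 transcript, 22.3% also occur in another gene, 20.5% in SULT1A1. For SULT1A1 the share was 24.7%, 15.3% with SULT1A3, which had 24 counts over all libraries, while SULT1A4 had 0. Reads from shared stretches could be dropped or misplaced, so the split between the paralogs is uncertain. Alignments that were not unique made up 14.88% to 15.96% of TRB T3 and 17.63% to 23.27% of TRB vehicle libraries. In EV cells they made up 16.36% to 17.63% of T3 and 20.49% to 24.5% of vehicle libraries. The part of this shift with treatment in the paralog counts was not tested. Summed into 1 feature, SULT1A1 and SULT1A2 rose with T3 by 1.67 on the log2 scale in TRB cells (adjusted p = 6.35e-33) and by 0.54 in EV cells (adjusted p = 4.92e-06), a smaller change than that of SULT1A2 alone. There were 22.9, 22.7 and 20.1 SULT1A2 counts per 100 SULT1A1 counts in TRB T3, 9.19, 9.78 and 9.14 in TRB vehicle, 31.0, 32.6 and 27.6 in EV T3 and 17.0, 11.3 and 9.47 in EV vehicle libraries. The ratio was thus higher with T3 than with vehicle in both lines without overlap, and highest in EV T3 libraries, and this difference was not tested.

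**Figure D2:**
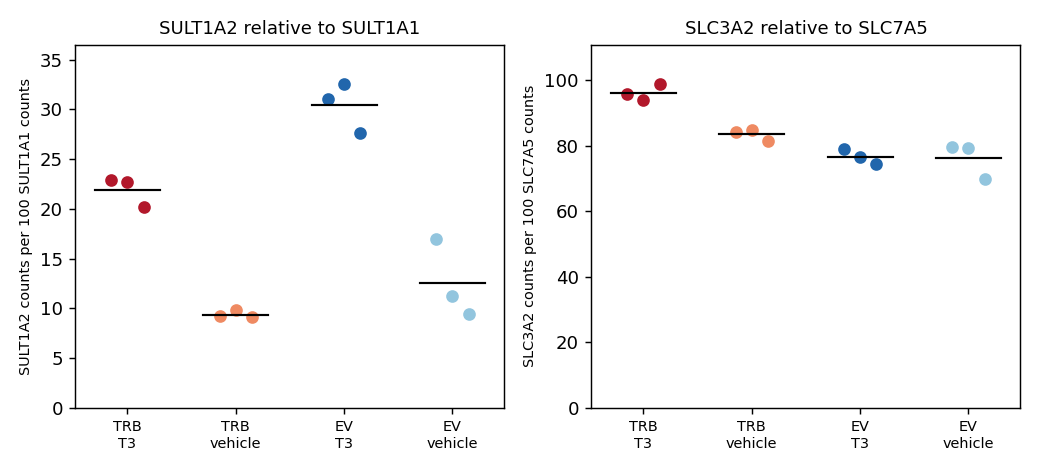
Counts of SULT1A2 per 100 counts of SULT1A1 (left) and of SLC3A2 per 100 counts of SLC7A5 (right), on linear axes from 0; points are the 3 libraries of each group and the line is their mean. T3 libraries hold 20.1 to 32.6 SULT1A2 counts per 100 SULT1A1 counts, above the 9.14 to 17.0 of vehicle libraries, and TRB T3 libraries hold the most SLC3A2 per SLC7A5.

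Counted together, 5 of the 7 members tested passed for T3 in TRB cells, 3 higher and 2 lower, where 44.4% of the 14549 genes tested passed (22.4% higher and 21.9% lower). For T3 in EV cells 2 members passed, both higher, against 4.54% of all genes (2.84% higher and 1.7% lower). For TRB against EV cells with T3, 6 passed, 3 higher and 3 lower, against 40.7% (21% and 19.7%). With vehicle 2 passed, both lower, against 15.3% (7.86% higher and 7.4% lower). The T3 effect differed between the lines for 4 members, 2 more positive and 2 more negative in TRB cells, against 23.9% (12.3% and 11.6%). The members' median log2 fold changes in this order were 0.00, 0.08, -0.25, -0.23 and 0.10, and those of all genes lay within 0.002 of 0. The 7 genes had no common direction, and the comparisons share libraries, so their counts are not independent.

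**Figure D3:**
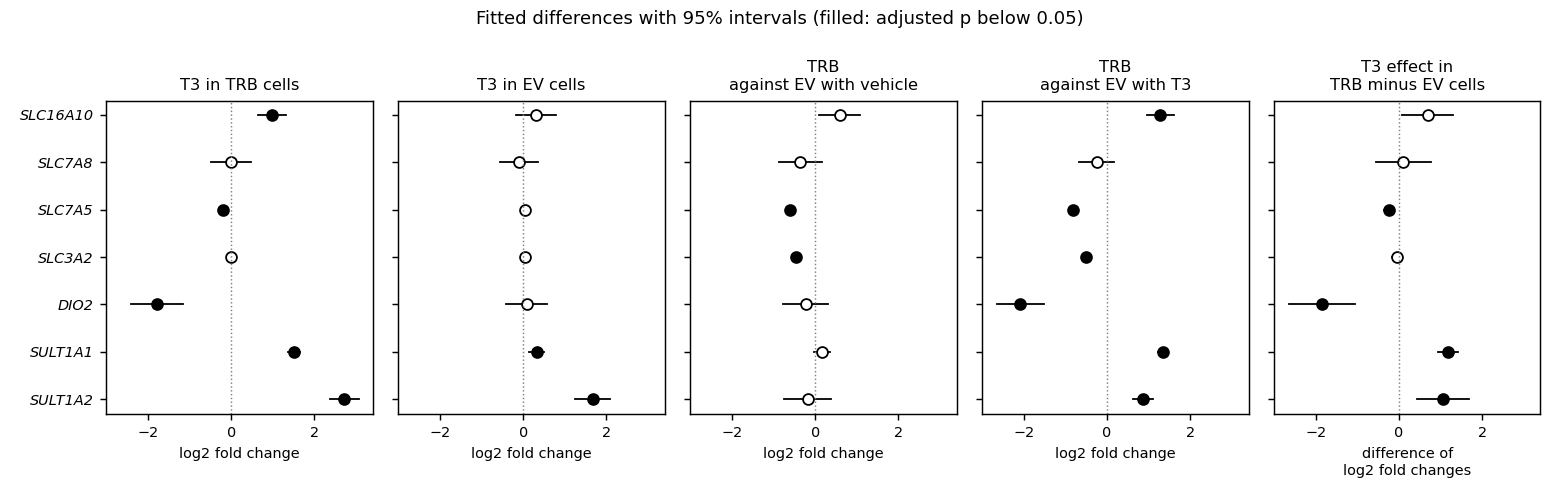
Fitted log2 fold change of each of the 7 members tested, with its 95% interval, in 5 comparisons; filled points passed an adjusted p of 0.05. For T3 in TRB cells SULT1A1, SULT1A2 and SLC16A10 lie right of 0 and DIO2 and SLC7A5 left of it, and the right panel plots the difference between the T3 effects in TRB and EV cells.

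Across the 12 libraries SLC7A5 and SLC3A2 had a Pearson r of 0.96 in log2 CPM and SULT1A1 and SULT1A2 one of 0.85, while DIO2 ran against SULT1A1 (-0.94) and SLC16A10 (-0.92). These describe 4 groups and give no test. Among 12627 genes averaging at least 1 CPM, those nearest in pattern to SLC16A10 were KLK8 (r = 0.987), APOD (0.984) and SPDEF (0.983). For SLC7A5 they were ALPP (0.991), COTL1 (0.99) and PHLDA1 (0.99), and for SLC3A2 MAF1 (0.983), ALPP (0.982) and PIGO (0.971). ALPP, a placental alkaline phosphatase, was thus near both chains of the dimer. For DIO2 they were LHX4 (0.976), COL13A1 (0.972) and HIST3H2A (0.972), for SULT1A1 C1QTNF6 (0.995), MFSD2A (0.995) and AUTS2 (0.992), and for SULT1A2 ZSWIM4 (0.974), LGALS8 (0.974) and KLHL26 (0.97). SLC7A8 had the weakest neighbours, FRMD3 (0.911), LRRC41 (0.877) and UTP4 (0.867).

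Of 15 other carriers of thyroid hormone listed, 10 were too low to test. Of the 5 tested, 3 fell and 1 rose with T3 in TRB cells, where 21.9% of all genes tested fell and 22.4% rose, and their median log2 fold change was -0.45 against 0.00 for all genes. So few genes say nothing of such carriers as a group. In EV cells, where 4.54% of all genes passed by edgeR, none of the 5 passed by edgeR or DESeq2. Of them 1 had an unadjusted p under 0.05 in edgeR. The organic anion carrier SLCO4A1 fell to 1.14 ± 0.0801 CPM in TRB T3 cells, against 4.28 ± 1.19 CPM in TRB vehicle cells (log2 fold change -1.92, adjusted p = 2.55e-09), with 6.16 ± 0.701 CPM in EV T3 and 8.19 ± 1.04 CPM in EV vehicle cells. SLC43A2, a neutral amino acid carrier, fell by 0.57 (adjusted p = 1.11e-10) and SLCO3A1 by 0.45 (adjusted p = 8e-07). Of 5 other partners of the SLC3A2 heavy chain 2 were tested. SLC7A11, the cystine carrier, was lower in TRB than in EV cells by 0.66 with T3 and by 0.42 with vehicle (adjusted p = 1.17e-09 and 0.00257), and SLC7A6 was lower by 0.20 with T3 (adjusted p = 0.00526).

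Of the other deiodinases, DIO3, which inactivates T3, had 0 counts and DIO1 had 11, and neither was tested. Among 16 tested genes for selenoprotein synthesis, thioredoxin and turnover of the DIO2 protein, 7 rose and 1 fell with T3 in TRB cells, and 4 to 8 rose under the alternatives. The total of 8 of 16 is near the 44.4% of all genes that passed, but of all genes 22.4% rose and 21.9% fell. The list's leaning to higher was not tested, and its median log2 fold change was 0.10. TXNRD1, a thioredoxin reductase that is itself a selenoprotein, stood at 239 ± 7.40 CPM in TRB T3 and 146 ± 10.3 CPM in TRB vehicle cells (0.71, adjusted p = 5.22e-23). The ubiquitin-conjugating enzyme UBE2G2 rose by 0.38 (adjusted p = 1.88e-10) and the ubiquitin ligase MARCH6, which marks the DIO2 protein for degradation, by 0.16 (adjusted p = 0.000272). Thioredoxin, TXN, named here after its values were seen as the only one to fall, stood at -0.27 (adjusted p = 0.0112). None of the 16 passed for T3 in EV cells by edgeR or DESeq2, where 4.54% of all genes passed by edgeR. Of the 16, 4 had an unadjusted p under 0.05 in edgeR, all higher.

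Of 10 sulfation genes tested, 1 rose and 4 fell with T3 in TRB cells, a total near the 44.4% of all genes that passed. Of all genes 22.4% rose and 21.9% fell, and the median log2 fold change of the 10 was 0.02. The 2 genes that make the sulfate donor fell in TRB cells, where SULT1A1 and SULT1A2 rose, while the sulfotransferase gene SULT2B1, named here after its values were seen, stood at 0.02 (adjusted p = 0.832). PAPSS2, which makes the sulfate donor PAPS, measured 60.5 ± 0.953 CPM in TRB T3 and 107 ± 3.12 CPM in TRB vehicle cells (log2 fold change -0.83, adjusted p = 6.71e-23), with 60.3 ± 3.94 CPM in EV T3 and 68.8 ± 2.83 CPM in EV vehicle cells. Its paralog PAPSS1 fell by 0.29 (adjusted p = 8.76e-06) and the steroid sulfatase STS by 0.28 (adjusted p = 0.000176). With vehicle PAPSS2 was 0.63 and PAPSS1 0.28 higher in TRB than in EV cells (adjusted p = 2.24e-14 and 0.000365), and under T3 neither was among the 3 sulfation genes that passed. In EV cells PAPSS2 alone passed, at -0.19 (adjusted p = 0.0381), a result lost in 10 of 20 alternative settings, and PAPSS1 stood at -0.03 (adjusted p = 0.884). Of 8 glucuronidation genes GUSB alone was tested, and it passed for T3 in neither line.

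**Figure D4:**
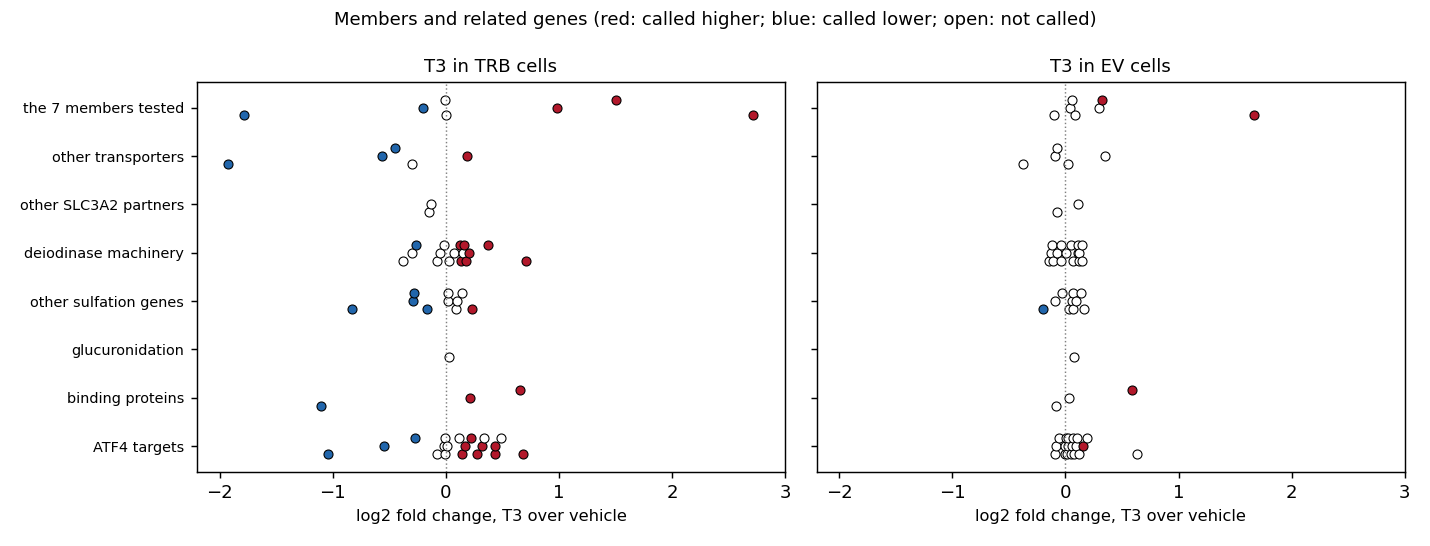
Log2 fold change, T3 over vehicle, of the 7 members tested and of the tested genes in 7 related lists, in TRB cells (left) and EV cells (right); each point is a gene, red if it rose, blue if it fell and open if it did not pass. The members spread from -1.78 to 2.72 in TRB cells, and in EV cells SULT1A2 lies farthest from 0.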

How the data were processed

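RNA sequencing libraries of 12 MDA-MB-468 samples, 3 in each of 4 groups named by the sample titles, were built using NEBNext Ultra II RNA reagents, per the labels' protocols. The submitters' processing notes list build hg38, CASAVA 1.7, STAR 2.7, HTSeq 0.10 and DESeq2; annotation and strand setting were not given in the sources used here. Raw gene counts, whole numbers in a file per library, are as the authors deposited them, and their table of normalized values was not used here. Lines that name no gene, 31.87% to 39.24% of a library, were left out.

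Counts were filtered with filterByExpr (10 counts, 15 in total), scaled by TMM and tested in R 4.3.3 by the robust quasi-likelihood test of edgeR 4.0.16 (limma 3.58.1), with all 4 groups fitted together (8 residual degrees of freedom). The test adds prior degrees of freedom estimated over all genes, so intervals and p-values rest on more than those 8. P-values were Benjamini-Hochberg adjusted over 14549 genes, with a threshold of 0.05. The procedure was tested on simulated counts. The SE came from dividing a log2 fold change by the square root of F. CPM use TMM-scaled totals, and RPKM and positions use GENCODE on GRCh38, which matched 53.6% of the 56832 names. Correlations used log2 CPM with a prior count of 2. Floors of 3 counts and 95% intervals cover counting error or library spread only; without molecular identifiers, reads are no independent molecules.

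The members and the related lists were chosen with earlier results of these data known. Named were all members, THRB, KLF9 and HR, the 3 genes nearest each member in pattern, and at most 3 genes per list and comparison with the smallest adjusted p, apart from a few genes not reported here. Alternatives were DESeq2 1.42.0, RLE normalization, other filters (none, or over 1 CPM in 3 libraries), fitting only the compared groups, thinning to 4241863 counts, GC offsets (a GC value for 88.8% of tested genes), a replicate block, summed SULT1A counts and each library left out in turn. No pair of libraries agreed within sampling noise (lowest chi-square 1.44 per gene).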

Additional observations from a re-analysis of the deposited data

Results flagged for a closer look

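For 4 members the effect of T3 differed between TRB and EV cells by the test of the difference itself in the edgeR fit over all genes. DIO2 stood at -1.86 on the log2 scale, having fallen in TRB cells, with an EV effect near 0 that did not pass. SLC7A5 stood at -0.24, a small difference between a called decrease in TRB cells and an EV effect that did not pass. SULT1A1 stood at 1.18 and SULT1A2 at 1.05, each with an increase in TRB cells larger than that in EV cells. Without EV vehicle replicate 1 the SULT1A2 difference did not pass.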

How the results depend on the processing

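For T3 in TRB cells and for both comparisons of TRB with EV cells, every count of members that passed (5, 6 with T3 and 2 with vehicle) was the same under each alternative. Among the members' fold changes under the alternatives, 684 kept direction and side of the threshold, 7 lost the threshold and 19 changed sign. The 684 include members that did not pass in either fit and fits without a library outside the comparison, which could change little. The summed SULT1A counts enter under both SULT1A1 and SULT1A2, so these totals are no measure of robustness. For T3 in EV cells 660 genes passed, but 425 thinned to equal depth, 372 by DESeq2 and 275 to 712 with 1 library left out (396 without EV vehicle replicate 1, 275 without replicate 3, 341 without EV T3 replicate 2); the 2 members became 1 thinned, 1 by DESeq2 and 1 to 2 with 1 library left out, SULT1A1 being lost. TRB against EV cells with vehicle gave 2220 genes and 1417 by DESeq2. The 4 members whose T3 effects differed became 3 without EV vehicle replicate 1. Signs turned only among members that did not pass. For T3 in TRB cells SLC7A8 stood at 0.00 with only the compared groups fitted and at -0.093 to 0.096 with 1 library left out, and SLC3A2 at -0.002 with CPM above 1 in 3 libraries, -0.077 with GC offsets and -0.03 to 0.045 with 1 library left out. For T3 in EV cells, thinning gave -0.14 for SLC16A10 and -0.26 for DIO2, and GC offsets -0.027 for SLC7A5. For TRB against EV with vehicle, thinning gave 0.027 for DIO2, and SULT1A2 stood at 0.12 summed with SULT1A1, 0.11 summed with 4 SULT1A genes and -0.404 to 0.082 with 1 library left out. The difference in T3 effects for SLC7A8 was 0 to 0.20 with 1 library left out. The cause of these shifts was not tested.

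Deviations of same-numbered libraries from their group means correlated at -0.12 to 0.08 over 18 pairs, with a median of 0.006. For libraries with different numbers the range was -0.055 to 0.141 over 36 pairs, with a median of -0.007. Replicate numbers were therefore not taken as pairs in the main fit, and shared handling was not tested. With a replicate block, 6437, 647, 2195, 5898 and 3493 genes passed for T3 in TRB, T3 in EV, TRB against EV with vehicle and with T3, and the difference, and 5, 2, 2, 6 and 4 members, with no member's call changed. Depth limits SLC16A10, SLC7A8 and DIO2, and CRYM most.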

Other observations

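ATF4 and genes that it induces when amino acids run short were counted together because the LAT1 dimer imports essential amino acids. Of 19 tested, 8 rose and 3 fell with T3 in TRB cells, where 22.4% of all genes rose and 21.9% fell. In EV cells 1 rose, where 2.84% of all genes did. The neutral amino acid carrier SLC1A4 measured 24.1 ± 0.797 CPM in TRB T3 and 49.6 ± 1.86 CPM in TRB vehicle cells (log2 fold change -1.04, edgeR adjusted p = 1.94e-21), the pseudokinase gene TRIB3 114 ± 1.47 and 167 ± 2.35 CPM (-0.55, 3.51e-18), and the lipoprotein receptor gene VLDLR 82.5 ± 0.890 and 51.4 ± 5.36 CPM (0.68, 2.02e-16). ATF4 itself measured 507 ± 12.5 CPM in TRB T3 and 534 ± 12.6 CPM in TRB vehicle cells and did not pass. With vehicle 7 were lower and none higher in TRB than in EV cells by edgeR (6 and 0 by DESeq2, 10 and 1 at an unadjusted p under 0.05), where 7.4% of all genes were lower. The 7 included SLC38A2 (-0.32), PSAT1 (-0.29) and SLC7A1 (-0.25), at edgeR adjusted p of 1.16e-08, 9.5e-06 and 6.86e-05. The list had no common direction with T3 in TRB cells, where its median log2 fold change was 0.15.

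A list of proteins that may bind thyroid hormone without being receptors was drawn up by name, and binding was not measured. In it TTR and SERPINA7 had 0 counts. The retinal dehydrogenase gene ALDH1A3 rose in both lines, to 374 ± 23.1 CPM in TRB T3 against 238 ± 12.7 CPM in TRB vehicle cells, and to 325 ± 7.49 CPM in EV T3 against 216 ± 6.05 CPM in EV vehicle cells (log2 fold changes 0.66 and 0.59, edgeR adjusted p = 1.49e-22 and 1.4e-17). Its paralog ALDH1A1 fell by 1.10 in TRB cells (adjusted p = 5.72e-13), and this T3 effect differed from that in EV cells by -1.02 (adjusted p = 1.29e-07). PKM, the pyruvate kinase gene, rose by 0.21 in TRB cells (adjusted p = 1.62e-05).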
